A study of Mus musculus with 4 samples.

Results

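Elastic fibres let skin stretch and recoil. They have a core of elastin (Eln) laid on a scaffold of microfibrils, which are built from the fibrillins (Fbn1, Fbn2) and carry microfibril-associated proteins such as MAGP-2 (Mfap5). Fibulins (Fbln1, Fbln2, Fbln5) bind elastin, fibrillin or both, and fibulin-5 helps to bring elastin and the crosslinking enzymes together. Lysyl oxidase (Lox) and its relatives (Loxl1, Loxl2) oxidise lysines in elastin and collagen so that the chains become crosslinked. In the dermis, fibroblasts make most of these proteins. The 10 genes were chosen by name from 21887 protein-coding genes, and every peak whose midpoint lay inside the mm10 span of a gene or within 50000 bp of it was taken. This gave 536 of 585165 peaks in the Sod2-/- knockout, 519 of 433013 in the Sod2+/+ control, 350 of 347438 in rotenone and 429 of 340240 in vehicle.

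The peaks came from ATAC-seq, in which the Tn5 transposase cuts and tags accessible DNA, of dermal fibroblasts of C57BL/6 mice. The first comparison set fibroblasts with a conditional Sod2 knockout (Sod2-/-, lacking the mitochondrial manganese superoxide dismutase) against Sod2+/+ control fibroblasts, and the second set Sod2+/+ fibroblasts given rotenone, a complex I inhibitor labelled at 250 µM, against Sod2+/+ fibroblasts given vehicle. All 4 samples are labelled 100 days, without saying what the days count, and the Cre driver or tissue of the knockout is not given in the sources used here. Each group had 1 library, so no difference below has a replicate check and no p-value is given.

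Because the deposited lists differed in length, the 30000 peaks with the highest −log10 p in each library were called strong, and rank 1 is the highest. Folds are the authors' enrichments of a peak over the local background of its own library, and folds and ranks are set side by side without reading a change from them. The median fold of all strong peaks ran from 5.49 in the knockout to 7.13 in vehicle, and read depth is unknown. As a check of the cell type, a strong peak lay at the start or end of 1 of 10 fibroblast markers in the knockout and in rotenone and 2 in control and in vehicle, and within 50000 bp of 9 or 10 of them in every library. The wider count was like that for other cell types, at 6 of 6 keratinocyte markers in the knockout and 4 elsewhere, 3 or 4 of 4 endothelial, 3 to 5 of 5 myeloid and lymphoid, 3 of 3 pericyte and smooth muscle, 2 to 4 of 4 melanocyte and 2 or 3 of 3 adipocyte markers. The counts at the start or end were 0 of 6 for keratinocytes, 0 of 5 for myeloid and lymphoid cells, 0 of 3 for pericytes and smooth muscle, 0 of 3 for adipocytes and 2 of 4 for melanocytes (Mitf and Pmel) in every library. For endothelial cells it was 0 of 4 in the knockout, control and rotenone and 1 (Tie1) in vehicle. Neither measure set fibroblast markers apart. Sod2 itself had a strong peak at its start or end in all 4 libraries, and the labels do not say which part was deleted.

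All 10 genes had strong peaks in all 4 libraries. Together they held 56 in the knockout, 55 in control, 52 in rotenone and 55 in vehicle. The median per gene was 6 in the knockout, 5 in control, 6 in rotenone and 5 in vehicle, against 2, 2, 3 and 2 for all protein-coding genes, counts that were not adjusted for gene length. Of the peaks of any strength near the genes, 10.4% were strong in the knockout, 10.6% in control, 14.9% in rotenone and 12.8% in vehicle, against 5.13%, 6.93%, 8.63% and 8.82% of the whole lists. Their median width was 358.5 bp in the knockout, 474 bp in control, 381.5 bp in rotenone and 475 bp in vehicle, above the 293, 376, 277 and 349 bp of all strong peaks. Their median fold, at 5.28 in the knockout, 6.68 in control, 6.18 in rotenone and 6.77 in vehicle, was close to that of each list.

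The genes differed in where their strong peaks lay. Fbln1, Fbln5 and Fbn1 carried most of theirs inside the gene, with 5 of 6 at Fbln1, 6 of 8 at Fbln5 and 5 of 7 at Fbn1 in the knockout. Eln, Loxl2 and Mfap5 had 0 inside the gene in every library. At Loxl2 both strong regions lay 36729 and 37891 bp beyond the gene, over or next to an end of Chmp7, which encodes a membrane-remodelling protein, and no peak of any strength lay within 1000 bp of either end of Loxl2. The best ranked region in the window of Eln also sat near the end of another gene, Limk1, a kinase that acts on actin turnover.

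**Figure D1:**
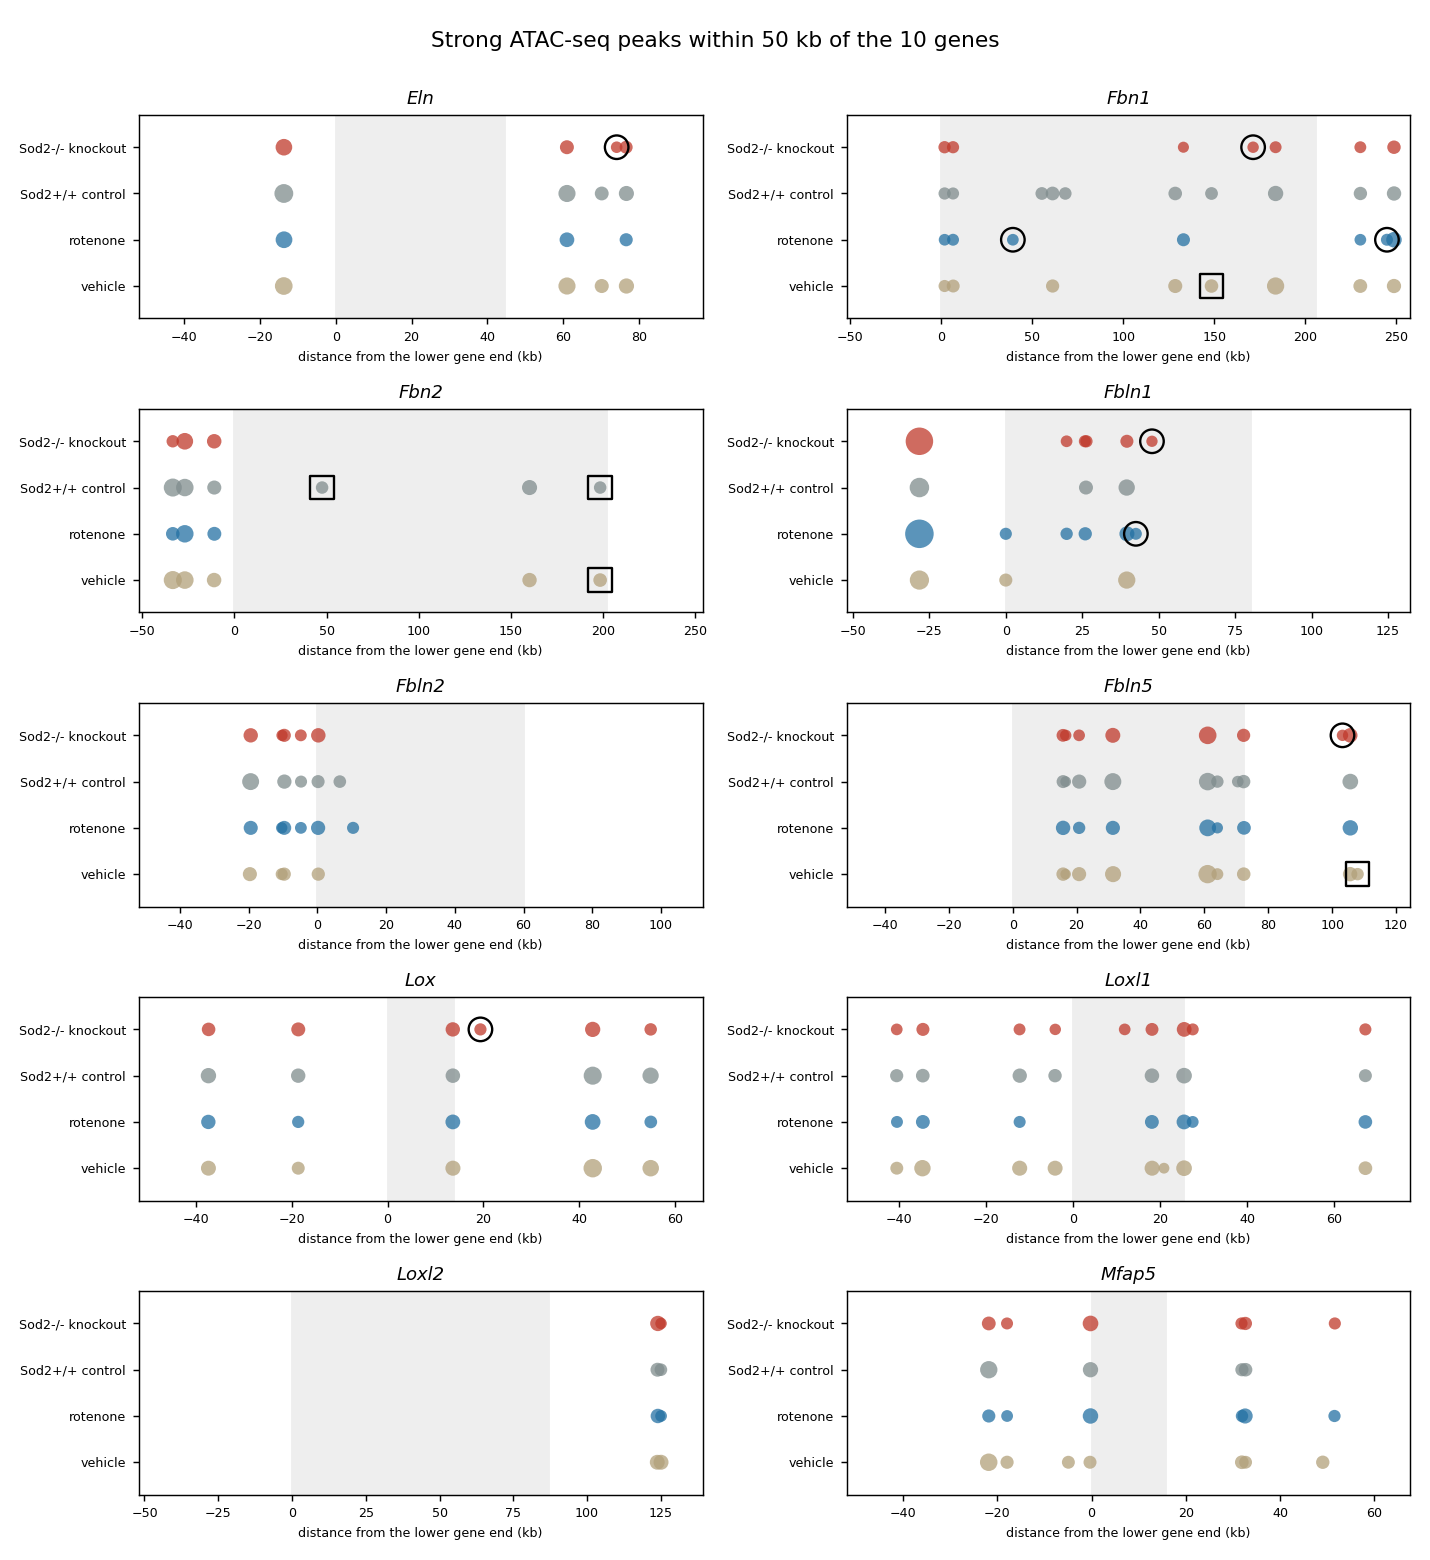
Positions of strong peaks at the 10 genes. Each row is 1 library, the horizontal axis is distance in kb from the lower-coordinate gene end, grey marks the gene, and larger points have a higher fold; black circles mark regions gained and black squares regions lost. Fbn2 has 0 strong points inside the gene in the knockout and in rotenone, against 3 in control and 2 in vehicle, and Loxl2 has 2 in every row, both beyond the gene.

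The fibrillin genes held fewer strong peaks inside the gene in the knockout and in rotenone, and Fbln1 held more. These genes were picked after their counts were seen, and such differences were not counted over all protein-coding genes. All members together had 20 inside the gene in the knockout against 25 in control, and 20 in rotenone against 21 in vehicle. Fbn2, the fibrillin gene most active in development, had 0 strong peaks inside the gene in the knockout against 3 in control, and 0 in rotenone against 2 in vehicle. Fbn1, which encodes the main fibrillin of adult microfibrils, had 5 in the knockout against 8 in control, and 4 in rotenone against 6 in vehicle. Fbln1 had 5 in the knockout against 2 in control, and 5 in rotenone against 2 in vehicle. In the knockout, 2 of the 5 Fbln1 peaks overlapped 1 and the same strong control peak (chromosome 15, 85231864-85232557, rank 17786). Counted as regions, 4 in the knockout stood against 2 in control. At the other places a weaker peak lay in the other library of the pair, so the counts describe which peaks passed rank 30000.

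**Figure D2:**
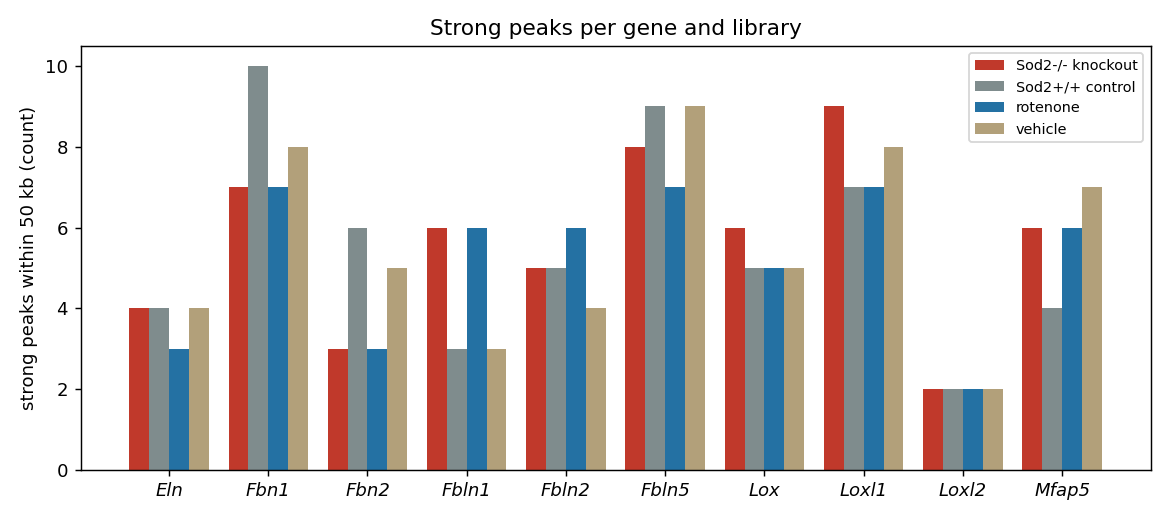
Number of strong peaks inside each gene or within 50 kb of it, with 1 bar per library. Fbln1 has 6 in the knockout and in rotenone and 3 in control and in vehicle, Fbn2 has 3 in the knockout and in rotenone against 6 in control and 5 in vehicle, and Loxl2 has 2 in all 4.

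A strong peak lay within 1000 bp of the start of 5 of the 10 genes in the knockout and in control and of 6 in rotenone and in vehicle, or of either end where the strand was not in the gene tables used. The share of all protein-coding genes with such a peak was 37.3% in the knockout, 37.3% in control, 38.1% in rotenone and 37.2% in vehicle. Fbln2, Fbln5, Lox, Loxl1 and Mfap5 had one in every library. At Lox, the peak over the upper gene end (chromosome 18, 52529218-52530205 merged over the libraries) had a fold of 7.05 and rank 5222 in the knockout, 7.20 and 6086 in control, 7.46 and 5498 in rotenone and 7.77 and 5701 in vehicle. It was also wide, at 827, 988, 839 and 854 bp. At Loxl1 the peak over the upper end (chromosome 9, 58312949-58313492) ranked 3943 in the knockout, 3682 in control, 4732 in rotenone and 4501 in vehicle. For both enzymes the end peak was thus of like rank in each library.

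At Fbln5 the peak over the upstream start (chromosome 12, 101818496-101819278) ranked 11584 in the knockout, 11498 in control, 11388 in rotenone and 11448 in vehicle, the narrowest spread of ranks among the end peaks. At Fbln2 (chromosome 6, 91212474-91212912) the start peak ranked 7293 in the knockout against 18090 in control, and 8936 in rotenone against 17966 in vehicle, with folds of 7.14, 5.83, 6.89 and 6.00. Mfap5 had a peak 110 to 134 bp outside its lower end (chromosome 6, 122513072-122513474), with ranks of 5496 in the knockout, 12054 in control, 7107 in rotenone and 25480 in vehicle. At Fbln2 and Mfap5 the knockout and rotenone peaks stood higher in their own lists than those of control and vehicle, and all 8 were strong. The Mfap5 folds were 8.35 in the knockout, 7.98 in control, 8.17 in rotenone and 5.78 in vehicle. Its control and vehicle ranks, 12054 and 25480, also differed from each other.

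Fbln1 lay at the edge of the strong list. Its start peak (chromosome 15, 85205896-85206118) was strong in rotenone (rank 23864, fold 5.04) and vehicle (rank 26814, fold 5.87), and just below in the knockout (rank 31958, fold 4.01) and control (rank 36164, fold 4.64). Fbn1 had start peaks outside the strong list in every library, with ranks of 53418 in the knockout, 38558 in control, 34234 in rotenone and 37960 in vehicle. At the ends of Eln and Fbn2 only weak peaks were listed, none with a better rank than 75216.

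**Figure D3:**
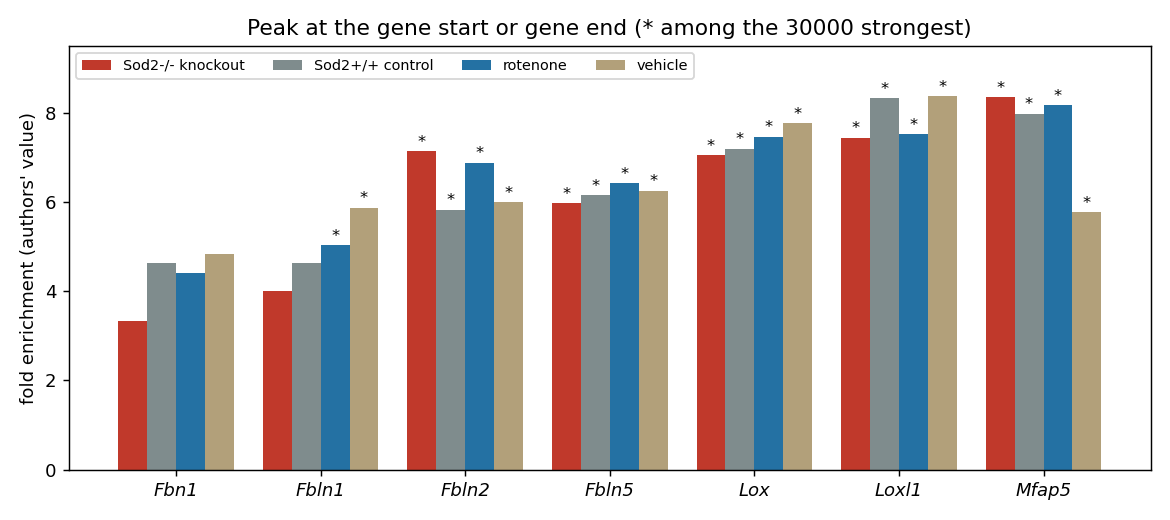
Fold enrichment, as deposited, of the best ranked peak within 1000 bp of the start (Fbn1, Fbln1, Fbln2, Fbln5) or of either gene end (Lox, Loxl1, Mfap5), 1 bar per library; a star marks a peak among the 30000 strongest of its library. Fbln1 has stars for rotenone and vehicle, Fbn1 has none, and the other 5 genes have stars in all 4 libraries.

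RefSeq start sequences (GRCm38.p6, the assembly of mm10) were held for 4 of the 10 genes, Fbn1, Fbln1, Fbln2 and Fbln5, and are shown because these starts span the range from no strong peak to strong peaks in every library. Each runs 5′ to 3′ on the strand of the gene over 300 bases, with the start at base 251, and capitals mark GC boxes, GGGCGG or its reverse complement CCGCCC, to which Sp1-type factors bind. The windows are chr2:125506389-125506688 on the minus strand for Fbn1, chr15:85205758-85206057 on the plus strand for the second listed start of Fbln1, chr6:91212514-91212813 on the plus strand for Fbln2, and chr12:101819070-101819369 on the minus strand for the upstream start of Fbln5.
Fbn1: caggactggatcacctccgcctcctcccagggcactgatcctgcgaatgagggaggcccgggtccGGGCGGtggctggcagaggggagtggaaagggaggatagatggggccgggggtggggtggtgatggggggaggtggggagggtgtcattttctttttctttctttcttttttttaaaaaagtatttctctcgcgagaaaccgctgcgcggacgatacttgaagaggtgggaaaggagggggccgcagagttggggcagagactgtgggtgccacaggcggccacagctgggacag
Fbln1: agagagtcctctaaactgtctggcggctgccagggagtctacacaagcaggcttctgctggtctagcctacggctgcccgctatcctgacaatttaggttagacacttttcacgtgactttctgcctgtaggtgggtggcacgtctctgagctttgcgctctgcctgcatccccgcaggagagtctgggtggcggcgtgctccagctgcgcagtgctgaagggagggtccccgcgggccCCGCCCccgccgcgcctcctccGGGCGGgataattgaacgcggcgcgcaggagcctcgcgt
Fbln2: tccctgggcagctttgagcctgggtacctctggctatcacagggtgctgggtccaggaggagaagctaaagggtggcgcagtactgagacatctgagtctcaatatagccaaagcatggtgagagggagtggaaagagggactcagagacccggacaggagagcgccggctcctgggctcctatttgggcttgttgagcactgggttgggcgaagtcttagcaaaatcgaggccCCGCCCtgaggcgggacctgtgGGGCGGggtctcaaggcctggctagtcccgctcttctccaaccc
Fbln5: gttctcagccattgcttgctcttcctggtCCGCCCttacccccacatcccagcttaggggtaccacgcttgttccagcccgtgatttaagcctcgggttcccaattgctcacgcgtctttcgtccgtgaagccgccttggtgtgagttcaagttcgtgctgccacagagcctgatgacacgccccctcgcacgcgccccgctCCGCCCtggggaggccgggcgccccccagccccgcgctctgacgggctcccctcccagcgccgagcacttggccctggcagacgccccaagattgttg

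The gene table lists 6 start windows for these 4 genes, of which 4, those shown, held a GC box and 2, at the first listed start of Fbln1 and the downstream start of Fbln5, held 0. The boxes lay at base 66 in Fbn1, bases 240 and 262 in Fbln1, bases 235 and 257 in Fbln2 and bases 30 and 203 in Fbln5. Of all 32851 start windows of this length, 35.7% held one. The G+C content was 60.3% in Fbn1, 64.0% in Fbln1, 60.3% in Fbln2 and 65.7% in Fbln5, and 51.7% and 48.7% in the other windows of Fbln1 and Fbln5, against a median of 52.7% over all windows. The AP-1 motif TGANTCA, the TATA box TATAAA and the TEAD motif CATTCC, each read on both strands and counted on its own where motifs overlap, occurred in 0 of the 6 windows listed for these genes, against 7.81%, 13.6% and 14.7% of all windows. The deposited peak covered 219 bases of the Fbln2 window in the knockout, 300 in control, 300 in rotenone and 217 in vehicle. It covered 111, 195, 156 and 209 bases of the Fbln5 window in the same order.

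The best ranked region of most genes lay away from the gene's own start or ends, and for some it lay near an end of another gene. The 218 strong peaks merged into 76 regions, of which 35 lay inside a member gene and 41 outside, 5 of them within 1000 bp of an end of another gene. Fbln5 had the best ranked region inside a member gene, at chromosome 12, 101807322-101807932, with ranks of 1078 in the knockout, 475 in control, 1751 in rotenone and 412 in vehicle and folds of 10.6, 10.5, 9.62 and 11.5. Below Fbn2, at chromosome 18, 57981280-57982139 and 26914 bp from the gene, a region ranked 1274 in the knockout, 691 in control, 1204 in rotenone and 871 in vehicle. A second region there, at 57974883-57975485, ranked 17538 in the knockout against 3290 in control, and 14351 in rotenone against 3077 in vehicle. The first of these thus kept a high rank in each library, and the second stood lower in the lists of the knockout and rotenone while strong in all 4.

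Lox had its best ranked region 29054 bp above the gene, at chromosome 18, 52558662-52559180, with ranks of 4026 in the knockout, 2417 in control, 5396 in rotenone and 2458 in vehicle. For Eln, the region at the Limk1 end (chromosome 5, 134688518-134689281) ranked 2581 in the knockout, 2555 in control, 2422 in rotenone and 4044 in vehicle. The nearest strong region on the other side of Eln, 16233 bp above it at 134763381-134763821, ranked 8783 in the knockout, 6350 in control, 7895 in rotenone and 6901 in vehicle. Both were strong in all 4 libraries.

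In the knockout and rotenone the best ranked peak of all 10 genes was a narrow one below Fbln1, and in control and vehicle it was the Fbln5 region given above. The narrow peak lay at chromosome 15, 85177746-85177789, 28182 bp from the gene. It was 44 bp wide with the same ends in all 4 libraries, far narrower than the median strong peak. Whether it comes from reads that map poorly there was not tested, since neither reads nor a genome were used. Its fold was 25.8 (rank 194) in the knockout against 13.0 (rank 3274) in control, and 27.7 (rank 175) in rotenone against 12.6 (rank 4117) in vehicle. For Loxl1 the best ranked region was the peak at the upper gene end in every library. For Fbln2 it was the start region in the knockout, the region 19619 bp below the gene (chromosome 6, 91192358-91193325) in control, with rank 6151, and the region at 91202658-91203069 in rotenone and vehicle, with ranks of 6681 and 12770.

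At Fbn1 the best ranked region changed between libraries. In the knockout and rotenone it was chromosome 2, 125549316-125549559, 305 bp from an end of Cep152, a centrosome gene, with ranks of 12091 and 6989 against 14609 in control and 18775 in vehicle. In control and vehicle it was an intragenic region at 125484233-125484479, with ranks of 11842 and 7157, against 20550 in the knockout and 33069 in rotenone. For Loxl2, the region at chromosome 14, 69732113-69733013 over the Chmp7 end ranked 5640 in the knockout, 15606 in control, 10567 in rotenone and 13057 in vehicle. The best ranked Mfap5 region was the peak at the lower gene end in the knockout and rotenone and, in control and vehicle, a region 21823 bp below the gene (chromosome 6, 122491637-122491885), with ranks of 5989 and 5638, against 10486 in the knockout and 16542 in rotenone.

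Of the 76 regions, 38 (50%) were strong in all 4 libraries, against 46.1% of the 42457 regions of the whole genome. Strong in control and vehicle alone were 6 (7.89% against 7.52%), and all 6 lay at Eln (1), Fbn1 (3) and Fbn2 (2). Strong in the knockout and rotenone alone were 4 (5.26% against 6.18%), 1 each at Fbn1, Fbln1, Loxl1 and Mfap5. These shares were close to those of the genome. Among the 6, the Fbn2 region at chromosome 18, 58168582-58168872 ranked 32211 in the knockout against 12562 in control, and 48698 in rotenone against 17272 in vehicle. The Eln region at chromosome 5, 134772495-134773063 ranked 43839 in the knockout against 18997 in control, and 54809 in rotenone against 20009 in vehicle. Among the 4, the Fbln1 region at chromosome 15, 85225764-85225996 ranked 22495 in the knockout against 30434 in control, and 23151 in rotenone against 50124 in vehicle.

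**Figure D4:**
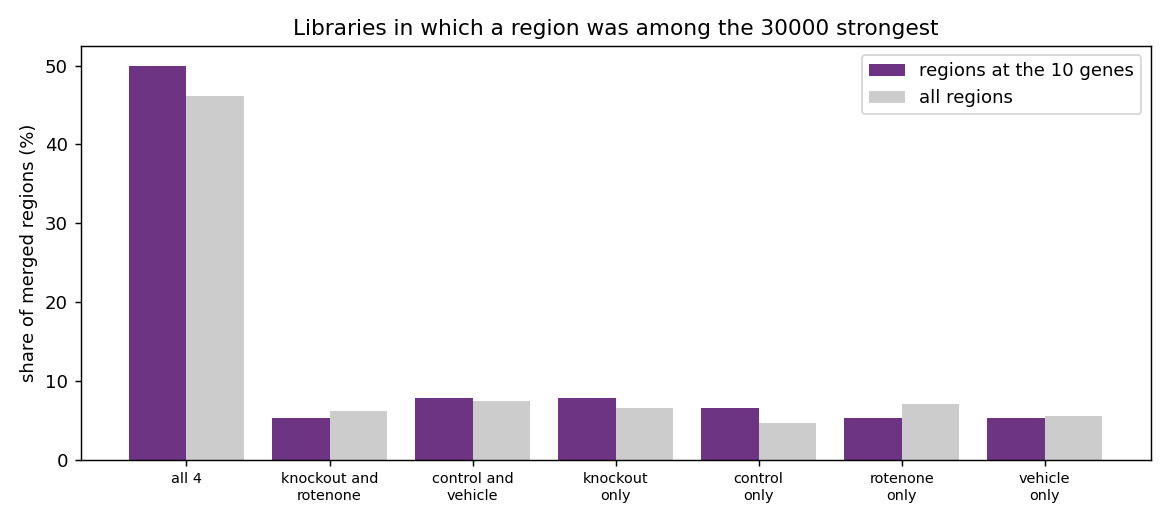
Share of merged regions (%) by the libraries in which they were among the 30000 strongest, for the 76 regions at the 10 genes and for all 42457 regions; combinations with 3 libraries, and other pairs, are left out. Both sets have their highest bar at all 4 libraries, 50% and 46.1%.

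A strong peak was called gained in the knockout or in rotenone, or lost from it, when it overlapped none of the 60000 best ranked peaks of the other library of the pair. In the knockout 5 of 56 strong peaks at the genes were gained (8.93%, 95% Wilson interval 3.87 to 19.3, counting error only), against 5.33% of all strong peaks, and 2 of the 55 control peaks were lost (3.64%, 1.003 to 12.3), against 6.76%. In rotenone 3 of 52 were gained (5.77%, 1.98 to 15.6), against 6.81%, and 3 of the 55 vehicle peaks were lost (5.45%, 1.87 to 14.9), against 8.04%. Each background share lay inside the interval. The intervals take every peak as a separate draw, although both knockout losses lay in Fbn2, and they hold no spread between libraries. With this number of peaks no difference from the genome was read from them. Between vehicle and control, which differ in neither Sod2 nor rotenone, 0 of 55 vehicle peaks and 0 of 55 control peaks lacked a counterpart, which allows shares of up to 5.45% each (3 counts of 55; the Wilson upper limit is 6.53%), against 1.03% and 0.847% of all strong peaks.

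The 5 gains in the knockout fell at 5 genes. The Lox gain, at chromosome 18, 52535368-52535575 and 5604 bp above the gene, was the best ranked, with rank 19909 and a fold of 5.10 in the knockout against rank 125630 and a fold of 2.75 in control. Its peaks in rotenone and vehicle ranked 65715 and 131992. The Fbn1 gain lay inside the gene (chromosome 2, 125471855-125472146), with rank 26592 in the knockout against 108206 in control, and with rank 51019 in rotenone against 136179 in vehicle. Lox and Fbn1 were thus the pair of gains over 200 bp wide.

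The other 3 knockout gains were 53 to 92 bp wide and close to the end of the strong list. Near Eln, 29348 bp above the gene, a 92 bp peak at chromosome 5, 134776671-134776762 had rank 25274 and a fold of 4.57 in the knockout, and no peak of any strength overlapped it in the other 3 libraries. In Fbln1 a 53 bp peak at chromosome 15, 85253759-85253811 had rank 27889 in the knockout against 65168 in control. Near Fbln5 a 92 bp peak at chromosome 12, 101849780-101849871 had rank 27346 against 87530 and lay inside the neighbouring gene Trip11, which encodes a Golgi protein.

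Both losses in the knockout lay inside Fbn2. The region at chromosome 18, 58206960-58207111, 3461 bp from the upper gene end, ranked 150428 (fold 2.50) in the knockout against 29737 (fold 5.32) in control. It was also the one region lost in both comparisons, with rank 225962 (fold 2.62) in rotenone against 21801 (fold 6.33) in vehicle. The other, at 58056089-58056276, ranked 220675 (fold 2.34) in the knockout against 27955 (fold 5.33) in control. In rotenone it ranked 104725, and its vehicle peak, at rank 32531, was just outside the strong list, so it could not be called there. In control the lost peaks ranked near the end of the strong list as well.

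In rotenone, Fbn1 had 2 gains and 1 loss. The loss was a 542 bp intragenic peak at chromosome 2, 125448859-125449400, which had rank 130888 (fold 2.92) in rotenone against 20948 (fold 6.26) in vehicle; the same place ranked 42973 in the knockout against 24527 in control. The gains were a 157 bp peak inside the gene at 125339906-125340062, with rank 28563 in rotenone against 61577 in vehicle, and a 74 bp peak at 125545509-125545582, with rank 25621 against 76765, nearer to Cep152 than to Fbn1. The first of these was close to the limit of rank 60000. In Fbln1 an 87 bp peak at chromosome 15, 85248480-85248566 was gained, with rank 25432 (fold 4.88) in rotenone against 259203 (fold 2.50) in vehicle. Near Fbln5, inside Trip11, a 175 bp peak at chromosome 12, 101854462-101854636 was lost, with rank 70197 in rotenone against 26791 in vehicle.

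**Figure D5:**
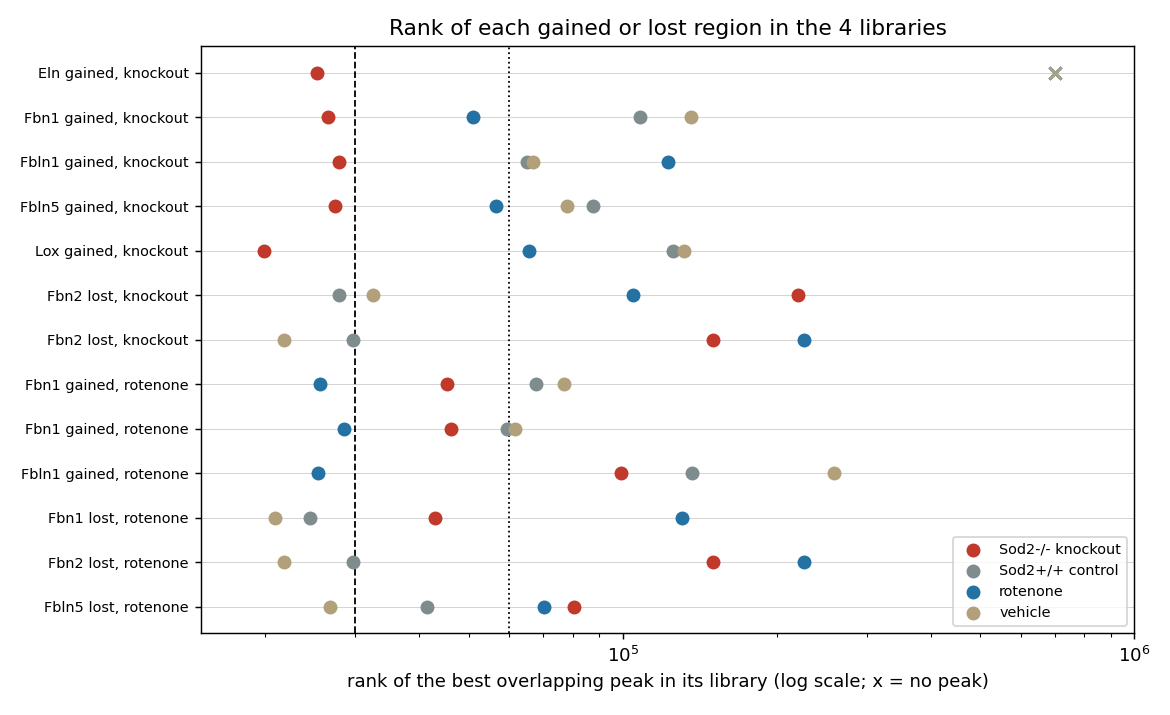
Rank, on a log axis, of the best overlapping peak in each library for the 13 gains and losses, 1 row each and named by gene, direction and comparison; lower ranks are stronger, the dashed line is rank 30000 and the dotted line rank 60000. A cross means no overlapping peak, which for the Eln row holds for control, rotenone and vehicle; in the Fbn2 rows the knockout and rotenone points lie right of the dotted line.

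By gene, 5 of the 10 had a gain in the knockout against 11% of all protein-coding genes, and 1 had a loss against 14.6%. In rotenone 2 had a gain against 13.8%, and 3 had a loss against 17.4%. The members also held more strong peaks per gene than the median gene, as given above. Of the members' regions, 0 of the 5 gained in the knockout were also gained in rotenone (0 of 3 the other way), against 21.6% and 16.9% of all gained peaks. Of those lost, 1 of 2 in the knockout and 1 of 3 in rotenone were shared, the Fbn2 region, against 27.4% and 23% of all lost peaks. Fbln2, Loxl1, Loxl2 and Mfap5 had 0 gained and 0 lost in both comparisons.

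The selection had 2 limits. Within the window the strong peak farthest from its gene was that at the Cep152 end, 42915 to 42953 bp from Fbn1, and the nearest one left out lay 50340 to 50433 bp from Lox, with ranks of 6442 in the knockout, 9369 in control, 7042 in rotenone and 10132 in vehicle. At rank 30000, the Fbn1 peak at 125368606-125368989 was just inside in control (rank 29975, fold 5.37) and just outside in the knockout (rank 31930, fold 4.11).

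Among 35 other genes of elastic fibres and collagen crosslinking, 10 had a gain and 10 a loss in the knockout, and 4 had a gain and 10 a loss in rotenone. These were 13 of 162 strong knockout peaks (8.02%), 12 of 142 control peaks (8.45%), 5 of 154 rotenone peaks (3.25%) and 13 of 138 vehicle peaks (9.42%), beside the shares of all strong peaks given above. Shared by both comparisons were 2 gains (of 13 in the knockout and 5 in rotenone) and 4 losses (of 12 and 13). Of all gained peaks, 21.6% in the knockout and 16.9% in rotenone were shared, and of all lost peaks 27.4% and 23%. By gene the shares were 28.6% gained and 28.6% lost in the knockout, against 11% and 14.6% of all protein-coding genes, and 11.4% gained and 28.6% lost in rotenone, against 13.8% and 17.4%. Between vehicle and control, 4 of the 35 genes (11.4%, against 2.8% of all genes) had a peak in vehicle alone and 1 (2.86%, against 2.07%) in control alone. The median of strong peaks per gene was 5 in the knockout, 4 in control, 4 in rotenone and 4 in vehicle for the 35 genes. For all protein-coding genes it was 2, 2, 3 and 2, and the shares by gene were not adjusted for this. Ltbp3, which encodes a latent TGF-β binding protein, had 2 gains and 1 loss in each comparison, and its gain at chromosome 19, 5794757-5795931 had rank 13642 in the knockout against 61336 in control and rank 13318 in rotenone against 86017 in vehicle. Ltbp1 had 2 losses in the knockout and 1 in rotenone. In the knockout Ltbp4 had 1 loss, 1087 bp away, and Ltbp2 1 gain, 18296 bp away. Control ranks were just past the limit for calling a gain at Ltbp2 (60068) and at both Ltbp3 gains in the knockout (61336 and 61963). The Ltbp1 region lost in both, at chromosome 17, 75369368-75369640, ranked 172745 in the knockout against 22838 in control and 70854 in rotenone against 24086 in vehicle.

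The fibulin relatives Efemp1 and Efemp2 (fibulin-3 and fibulin-4) had 1 and 2 gains in the knockout, those of Efemp2 5890 and 30559 bp away. The Efemp1 gain, inside the gene at chromosome 11, 28912524-28912724, had the best rank of this set, 9002 (fold 6.86) in the knockout against 75379 (fold 3.35) in control, and ranked 17900 in rotenone against 36652 in vehicle. Efemp1 also had 1 loss in rotenone, 3220 bp away. Of the elastin-binding emilins, Emilin1 had 1 gain 43778 bp away and 1 loss inside the gene in the knockout. Emilin2 had 1 loss inside the gene in rotenone. Mfap2, which encodes a microfibril protein related to that of Mfap5, had 1 loss in the knockout, 45629 bp away. Of the lysyl oxidase relatives, Loxl3 had 1 gain, 646 bp away, and Loxl4 1 loss, 26301 bp away, in the knockout. The Loxl3 region ranked 60082 in control, just past the limit for calling a gain.

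Of the genes for collagen-modifying enzymes, Plod2, whose lysyl hydroxylase acts on collagen telopeptides, had 3 losses in rotenone, of which the one inside the gene ranked 101879 in rotenone against 25584 in vehicle. Another, at chromosome 9, 92499868-92499991, lay 39707 bp from Plod2. It ranked 94563 in rotenone against 26376 in vehicle but also 72173 in untreated control. The Emilin2 loss and 1 Adamts17 loss likewise ranked 73417 and 69465 in control. Plod1 had 2 gains in the knockout, 4129 and 2085 bp away, and 1 loss in rotenone, 42737 bp away. Plod3 had 1 loss in the knockout and the prolyl hydroxylase gene P4ha2 had 1 loss in rotenone, both inside the gene. Tgm2, which encodes a crosslinking transglutaminase, had 1 gain and 2 losses in the knockout and 1 gain and 1 loss in rotenone. Its gains lay 21666 bp away in the knockout and 26155 bp away in rotenone. The loss in rotenone and 1 of those in the knockout lay inside the gene, and the other 22509 bp away. Bmp1, a procollagen proteinase gene, had the same region gained in both, 17485 bp away by its knockout peak. This region ranked 24705 in the knockout against 75264 in control, and 28225 in rotenone against 60738 in vehicle. The vehicle rank was just past the limit for calling a gain. Pcolce, the gene for the enhancer protein of this proteinase, had 1 loss in the knockout, 41140 bp away, and 1 gain in rotenone, 38610 bp away. The Pcolce loss ranked 60073 in the knockout, just past the limit for calling a loss. The ADAMTS gene Adamts17 had 1 loss in the knockout and 2 in rotenone, and Thsd4, whose product binds fibrillin-1, had 1 loss in rotenone. All of these lay inside the gene. Glb1, the beta-galactosidase gene, had 1 gain in the knockout, 13310 bp away.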

How the data were processed

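The submitters' processing notes list Bowtie2, bedtools, MACS2, HOMER and the build mm10. Not given in the sources used here are their versions, settings, read filters and any Tn5 shift. For every library the authors deposited its own peak list, with 9 columns and no header. The fold enrichment (column 7, a ratio) and the −log10 p (column 8) are the authors' values for single peaks, taking the columns to be in the broadPeak order of MACS2. Starts were converted to 1-based positions. Gene spans came from the RefSeq table of GRCm38.p6, in which all 10 members and all 35 other genes matched by symbol.

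Peaks were ranked by −log10 p, with ties by fold. Strong means the best 30000, and a strong peak was gained or lost when no peak among the best 60000 of the partner overlapped it by 1 bp. Overlaps of strong peaks over the 4 libraries were merged into regions. The overlap code was checked by removing 200 strong peaks from a copy of the same library's best 60000, for the knockout and for rotenone. All 200 of 200 were then called missing in each. The rule fixes this outcome, so it checks the code and not the calls between libraries. Alternatives were other list lengths, ranking by fold, 50% coverage, partner peaks of any strength, other windows and a minimum width of 100 bp, and 2 added after seeing the data. The members and lists were chosen with earlier results of these data known. Regions named are the best ranked of each member, start regions and all gains and losses; other regions, and examples among the 35 genes, were picked after their values were seen. The values of 1 region near Mfap5 are not reported here. No read counts were used, so depth is unknown. The work used pandas 2.3.3 and numpy 2.4.6 under Python 3.11.15, with figures from matplotlib 3.10.9.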

Additional observations from a re-analysis of the deposited data

Results flagged for a closer look

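Fbln5 was the one member whose count of gained minus lost regions had opposite signs, 1 in the knockout against control and -1 in rotenone against vehicle. These were different regions, and neither moved in opposite directions. The gained region ranked 27346 in the knockout against 87530 in control and 56581 in rotenone against 77981 in vehicle. The lost region ranked 80450 in the knockout against 41493 in control and 70197 in rotenone against 26791 in vehicle. The difference was not tested, with 1 library per group. Both lay inside the neighbouring gene Trip11, and under other list, ranking and overlap settings the gain held in 2 of 7 and the loss in 1 of 7. The 1 setting that kept the loss, 50% of the peak covered, keeps every reported call by its definition.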

How the results depend on the processing

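No paired analysis was possible because each group had 1 library and no result came from a test. Depth is unknown, and the small counts limit what can be seen. In order, counts below are knockout gains and losses (5 and 2 as reported), then rotenone gains and losses (3 and 3). With lists of 15000 the gains came to 0 and 0. The losses were then 2 of 28 in the knockout and 2 of 27 in rotenone, against 5.58% and 6.09% of all strong peaks. None of these was a loss reported above. With lists of 60000 the 4 counts were 10 of 103, 19 of 116, 9 of 90 and 13 of 98, against 12.1%, 14%, 15.6% and 16.5% of all strong peaks. Knockout gains were then below and losses above the share over all peaks, the reverse of the order as reported. In the same lists 4 control peaks had no vehicle counterpart. With 50% of a peak covered, losses came to 6 of 55 in the knockout and 7 of 55 in rotenone, below the 14.7% and 15.7% of all strong peaks, and 2 vehicle and 1 control peaks lacked a counterpart. Ranked by fold, 1 control peak lacked one. Against partner peaks of any strength the counts were 1, 0, 0 and 0, the 1 being the Eln peak. Without peaks narrower than 100 bp, gains came to 3 in the knockout and 1 in rotenone, and so did those against a partner list of 90000, chosen after seeing the data. Knockout gains came to 2 inside the gene only and 3 within 10000 bp. The strong peaks numbered 29 in the knockout, 28 in control, 26 in rotenone and 27 in vehicle with lists of 15000, and 103, 116, 90 and 98 with lists of 60000. They numbered 20, 25, 20 and 21 inside the gene only, and 27, 30, 24 and 26 within 10000 bp. Counting only peaks for which a member was the spanning or nearest gene, also chosen after seeing the data, they numbered 37 in the knockout, 33 in rotenone and 36 in vehicle. With lists of 15000, 3 members had a strong start peak in vehicle. Of 104 values in all, 62 stayed within 1.5 times the reported count. This compares counts alone, and includes the losses with lists of 15000 although the regions were others. The losses at Fbn2, the Fbn1 loss in rotenone and the gains near Lox and Eln each held under 5 of 7 alternatives of list, ranking and overlap, the Fbn1 gain in the knockout and the Fbln1 gain in rotenone under 4, the Fbln5 and Fbln1 gains in the knockout and both Fbn1 gains in rotenone under 2, and the Fbln5 loss in rotenone under 1. The setting of 50% of a peak covered keeps every reported gain and loss by its definition, so 1 of the 7 alternatives could not drop any of them. It was the only one that kept the Fbln5 loss. Lists of 15000 could keep none of them, since the best ranked, at Lox, had rank 19909. Against partner peaks of any strength only the Eln peak could hold, as each of the others overlapped a weaker partner peak. The cause of the shifts in counts beyond list length, window and overlap rule was not tested.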
